A study of Mus musculus with 9 samples.

Results

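The clustered protocadherins of mouse cortex were examined in 3 inbred strains. They were taken as every protein-coding gene of chromosome 18 whose symbol starts with Pcdha, Pcdhb or Pcdhg, which gave 57 of the 54532 genes in the expression table. The group held 14 genes of the Pcdha cluster, 22 of the Pcdhb cluster and 21 of the Pcdhg cluster. RNA had been sequenced from brain cortex of male mice, 3 each of C57BL/6J (B6), C3H/HeJ (C3H) and WSB/EiJ (WSB), all adults of 8 to 12 weeks. B6 and C3H are classical laboratory strains and WSB is a wild-derived strain. The study chose strain pairs whose infarct sizes after arterial occlusion are not explained by their collateral vessels, and it compared both WSB and C3H with B6. No allele, transgene or treatment was given for any group.

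Clustered protocadherins are cadherin-like proteins of the neuronal surface. A neuron expresses a small set of them, chosen from alternative promoters, and the proteins bind like partners on other membranes, which lets the branches of 1 neuron recognise and avoid each other. In the Pcdha and Pcdhg clusters each isoform has a long first exon of its own, coding for the extracellular part, which is spliced to constant exons shared by the whole cluster. Pcdhb genes have no such constant exons. The C-type isoforms at the ends of the Pcdha and Pcdhg clusters are known to be expressed broadly rather than by stochastic choice, and Pcdhgc4 is the isoform needed for survival of many neurons.

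The 57 genes lay on the plus strand of chromosome 18 from 36930184 to 37841873 (GRCm38), a span of 911.7 kb. The Pcdha cluster ran from 36930184 to 37187661, the Pcdhb cluster from 37264938 to 37524479 and the Pcdhg cluster from 37661793 to 37841873. The counting mode is not given in the sources used here, but exons shared by several genes had almost no counted reads. Among the 1223 genes of the table without an exon base of their own, 1214 had at most 3 reads in every library. The constant exons thus added length and few or no reads, and the median share of exon bases belonging to 1 gene alone was 46.4% in Pcdha, 100% in Pcdhb and 54.8% in Pcdhg. In 3 Pcdhb genes it was lower, at 36.5% in Pcdhb12, 90.3% in Pcdhb21 and 93.1% in Pcdhb22. For this reason levels and shares of different genes within a cluster were given only after rescaling. FPKM (fragments counted on a gene, scaled to its exon length and to library size) was rescaled to a gene's own exon bases, called here the own-exon level. Comparisons of 1 gene between strains used FPKM as deposited. So did sums over a cluster or group, in which genes with a small share of own bases weigh less, and the choice of genes by FPKM.

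Between 4715 and 7567 reads per library fell on the 57 genes, of 16317439 to 21562429 on all genes. Of the 57 genes, 18 had a mean of at least 1 FPKM over the 9 libraries and 4 stayed below 0.1 FPKM, namely Pcdha4, Pcdhb1, Pcdhga10 and 1 of the 2 genes named Pcdha11. Pcdhga10 had no exon base of its own and Pcdha4 had 404, so their low values say little about their transcripts. At most 9.8% of the 100-base stretches in a gene's own exons occurred in another gene's transcripts, with any such stretch in 27 of the genes.

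All markers of the cell types of cortex were detected, none being at 0 reads in every library, and several marker groups differed between the strains. The summed FPKM of 5 oligodendrocyte markers was 366 to 527 in WSB, 679 to 864 in B6 and 645 to 859 in C3H, and 1 of the 5 was called lower in WSB in either comparison. The 3 blood markers summed to 552 to 858 in C3H against 178 to 214 in B6 and 248 to 291 in WSB, and all 3 were called higher in C3H than in B6. The 4 hippocampal markers summed to 65.6 to 76.9 in WSB, 36.5 to 50.6 in B6 and 47.2 to 53.0 in C3H, and 1 of the 4 was called higher in WSB in either comparison. These markers did not all go the same way. Their log2 differences in WSB ran from -0.26 to 0.86 against B6 and from -0.12 to 0.63 against C3H. Sums of 5 microglial markers were 96.5 to 97.8 in WSB, 113 to 119 in B6 and 117 to 141 in C3H, and 1 was called lower in WSB in either comparison. The log2 differences of these 5 in WSB were also mixed, from -0.38 to 0.18 against B6 and from -0.54 to 0.11 against C3H. The 6 inhibitory neuron markers summed to 623 to 759 in WSB, above the 582 to 605 of B6. The sums of 4 excitatory neuron markers in WSB (293 to 353) overlapped B6 (302 to 382) and lay below C3H (358 to 451). Singly, the log2 differences of these 4 against C3H ran from -0.31 to 0.30. WSB also lay below C3H for 5 astrocyte markers (171 to 180 against 189 to 220), of which 1 was called lower. The log2 differences of these 5 ran from -0.70 to 0.12. C3H was lowest for 2 oligodendrocyte precursor markers (4.23 to 5.36 against 5.39 to 6.03 in B6). Of 4 endothelium markers, 1 was called lower in WSB in either comparison. The sums for endothelium, meninges, choroid plexus and striatum overlapped between all strains. Those of choroid plexus were 66.8, 765 and 64.4 in B6, 91.9, 447 and 656 in C3H and 468 to 603 in WSB, and those of striatum spread from 77.0 to 432, so mice of 1 strain differed widely in both. The part of these markers in the protocadherin differences was not tested.

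C-type isoforms stood at the top of both clusters that hold them. Pcdhac2 had an own-exon level of 7.72 ± 0.94 in B6, 6.38 ± 0.99 in C3H and 6.16 ± 1.02 in WSB (SD, n = 3), and it made up 39.9%, 43.2% and 41.1% of the Pcdha cluster. Pcdhgc5 and Pcdhgc3 led the Pcdhg cluster. Pcdhgc5 reached 14.5 ± 1.48 in B6, 12.9 ± 1.11 in C3H and 10.9 ± 0.94 in WSB, and Pcdhgc3 reached 11.9 ± 1.20, 12.5 ± 2.0 and 11.5 ± 1.14 in the same order. The means of these 2 genes lay within the larger SD of each other in C3H and WSB, so their order there was not resolved. Pcdhga11 came next, at 6.39 ± 1.20 in B6, 3.47 ± 0.52 in C3H and 4.92 ± 0.74 in WSB. The other 2 C-type genes were far lower, Pcdhgc4 at 2.57 ± 0.18 in B6 and Pcdhac1 at 1.15 ± 0.05.

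Below these, the isoforms of a cluster were not used evenly, and the order depended on the strain. In the Pcdhb cluster Pcdhb9 held the largest share in B6 (12.7% ± 1.14) and C3H (13.9% ± 0.94), just ahead of Pcdhb20 (12.2% ± 0.51 and 12.0% ± 1.16), a lead smaller than the SD of Pcdhb9 in B6. In WSB Pcdhb20 came first with 14.1% ± 0.21, while Pcdhb9 held 4.34% ± 0.58 and ranked 7 of 22. Among the Pcdha genes Pcdha12 ranked 2 of 13 in B6 (13.1% ± 0.59) and C3H (10.2% ± 0.40) but 10 of 13 in WSB (4.67% ± 0.40). Pcdha8 went the other way, from rank 12 in B6 (0.89% ± 0.25) and 13 in C3H (0.24% ± 0.08) to rank 2 in WSB (9.28% ± 1.31). Pcdha7 held 4.97% ± 0.71 in B6 and 0.58% ± 0.16 in WSB.

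**Figure D1:**
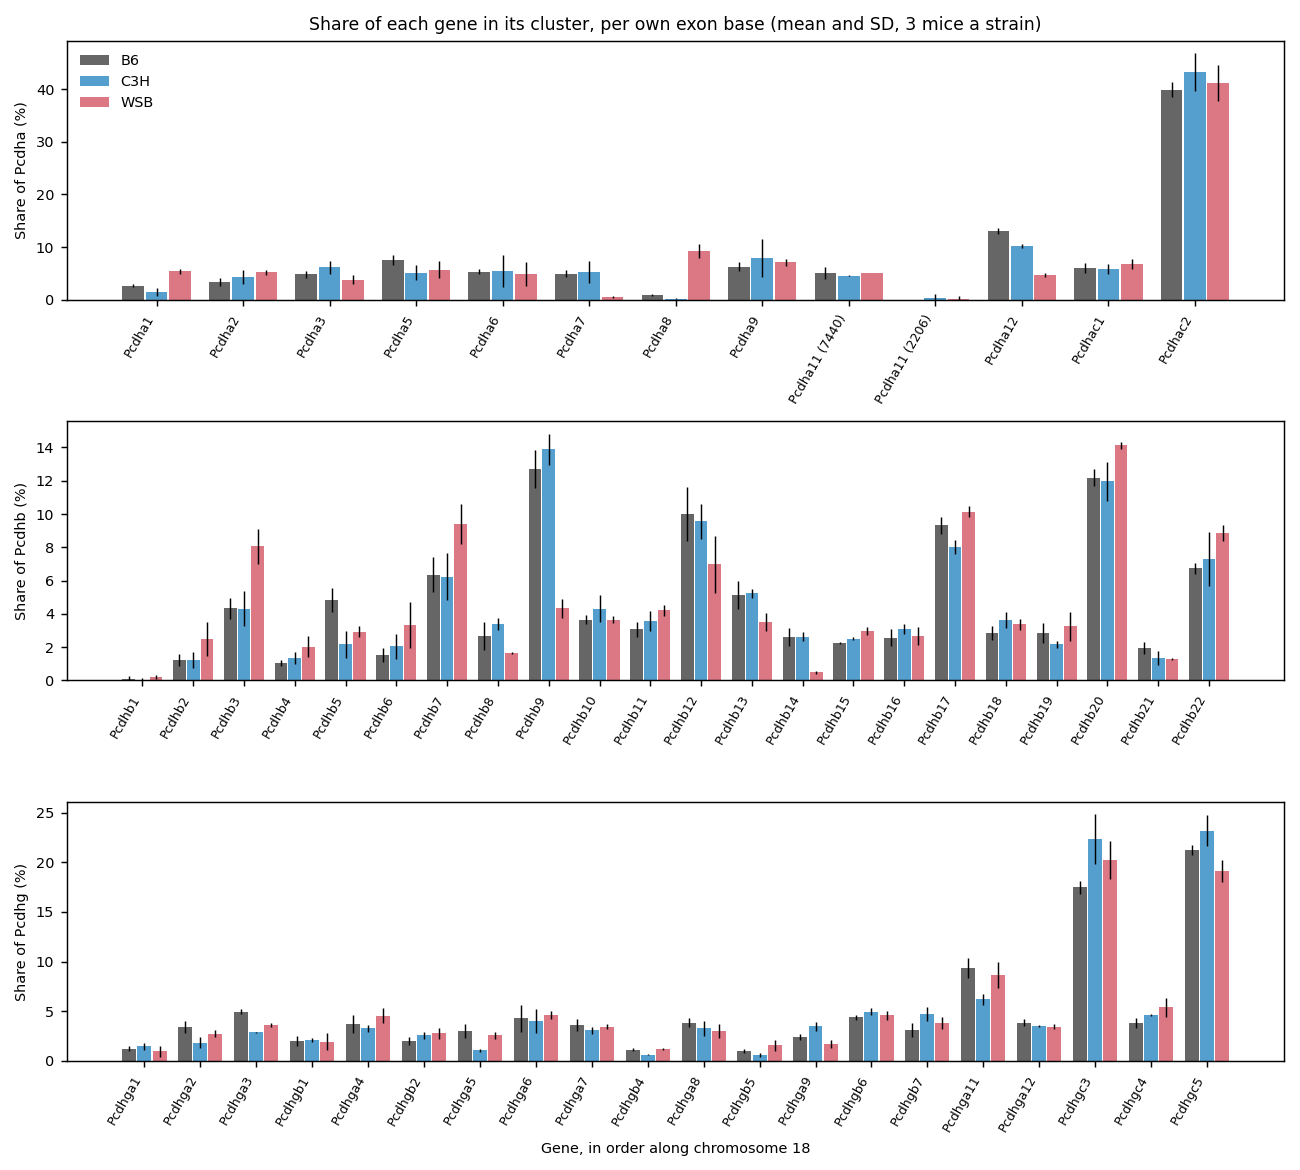
Share of each gene in its cluster in percent, computed from own-exon levels of the genes with at least 1000 exon bases of their own, in order along chromosome 18; bars are means and lines the SD of 3 mice a strain. Pcdhac2 holds 39.9% of the Pcdha cluster in B6 and Pcdhgc5 21.2% of the Pcdhg cluster, and the WSB bars of Pcdha7, Pcdha8, Pcdha12, Pcdhb9 and Pcdhb14 stand apart from those of B6 and C3H.

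Summed over a cluster, expression was lower on average in both WSB and C3H than in B6. The 22 Pcdhb genes summed to 29.3, 27.3 and 26.5 FPKM in the B6 mice, to 22.5, 26.3 and 20.3 in the C3H mice and to 23.3, 21.1 and 24.3 in the WSB mice. All mice of C3H and WSB thus lay below all mice of B6, with mean differences of -16.9% and -17.3%. The 21 Pcdhg genes summed to 35.5, 30.6 and 32.6 FPKM in B6, 28.0, 25.2 and 27.4 in C3H and 25.8, 27.8 and 28.2 in WSB, again without overlap with B6 (-18.4% and -17.2%). The 14 Pcdha genes summed to 9.37, 7.68 and 9.78 FPKM in B6, 6.43, 8.03 and 6.17 in C3H and 6.59, 6.38 and 8.34 in WSB, where the strains overlapped although the means differed by -23.1% and -20.6%. In bulk tissue fewer cells expressing a gene and less RNA per cell cannot be told apart. The sums add FPKM as deposited, not own-exon levels. They are given as a description and were not tested.

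Within the Pcdhg cluster the strains were apart in the A-type genes. The 12 Pcdhga genes summed to 13.8 ± 0.75 FPKM in B6, 9.04 ± 0.21 in C3H and 10.3 ± 0.68 in WSB, so that all mice of C3H lay below all mice of WSB and these below all of B6. The 6 Pcdhgb genes summed to 4.83 ± 0.57, 4.32 ± 0.28 and 4.70 ± 0.23 FPKM and overlapped between the strains. The 3 C-type genes of the cluster summed to 14.3 ± 1.23, 13.5 ± 1.04 and 12.3 ± 0.92 FPKM and overlapped too, although their mean was 13.8% lower in WSB than in B6. The 5 C-type genes of both clusters together summed to 18.8 ± 1.71 FPKM in B6, 17.2 ± 0.71 in C3H and 16.0 ± 1.42 in WSB, again with overlap.

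**Figure D2:**
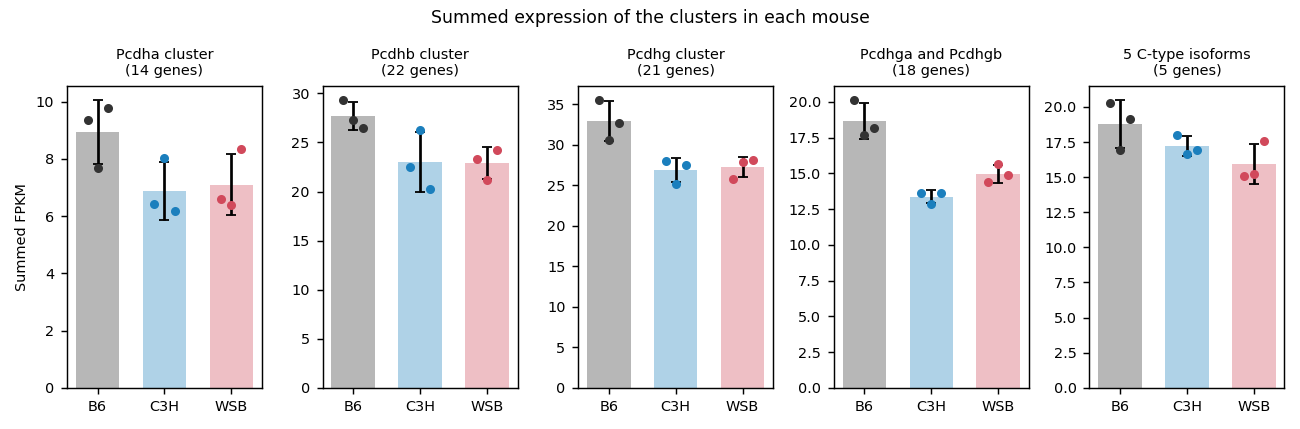
Summed FPKM in each mouse for the 3 clusters, for the Pcdhga and Pcdhgb genes together and for the 5 C-type isoforms; points are mice, bars the means and lines the SD of 3 mice. The Pcdhb and Pcdhg points of C3H and WSB lie below those of B6, whereas the Pcdha and C-type points overlap.

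Each gene was then compared between strains with limma on log2(FPKM + 0.1), in a fit over all genes that averaged 0.1 FPKM or more across both strains, and called at a Benjamini-Hochberg adjusted p under 0.05. For genes of low FPKM the added 0.1 makes differences look smaller than they are. Folds given below are ratios of mean FPKM without the added 0.1. The log2 differences, standard errors and adjusted p beside them come from the fit and are on its scale. Between WSB and B6, 8 of the 53 clustered protocadherins tested were called (15.1%), against 5.90% of all genes tested. Only 1 of the 8 was higher in WSB, against 2.81% of all genes, and 7 were lower, against 3.09%. The 1 called higher, Pcdha8, passed the filter of 0.1 FPKM only through its WSB values. Pcdha7, among those called lower, passed it only through its B6 values. Between C3H and B6, 2 of 52 were called (3.85%), against 4.64% of all genes. Whether this share lay above or below that of all genes depended on the setting, with 7.69% against 4.39% for a pseudocount of 1, 9.62% against 5.69% after GC trend removal and 11.5% against 7.22% with voom weights. Both were lower in C3H, where 2.26% of all genes were called lower and 2.38% higher. Between WSB and C3H, 5 of 53 were called (9.43%), against 5.74% of all genes, 2 higher in WSB (2.61% of all genes) and 3 lower (3.13%). The 3 comparisons share their mice in pairs and so are not independent of each other.

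Most of the genes tested, called or not, leaned below B6. The log2 difference was below 0 in 37 of 53 genes for WSB minus B6, with a median of -0.21, and in 43 of 52 genes for C3H minus B6, with a median of -0.27. Over all genes tested 49.7% and 50.4% were below 0, with medians near 0. The Pcdhga genes had 10 of 11 below 0 in both comparisons, with medians of -0.41 for WSB and -0.47 for C3H. The Pcdhb genes had 13 of 21 below 0 for WSB and 17 of 21 for C3H, with medians of -0.12 and -0.22. All 9 Pcdha genes tested between C3H and B6 were below 0, but limma called none of them (2 at an unadjusted p under 0.05, and none by limma with voom weights). These genes are neighbours that share a locus and, in part, exons, and they are not independent replicates.

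**Figure D3:**
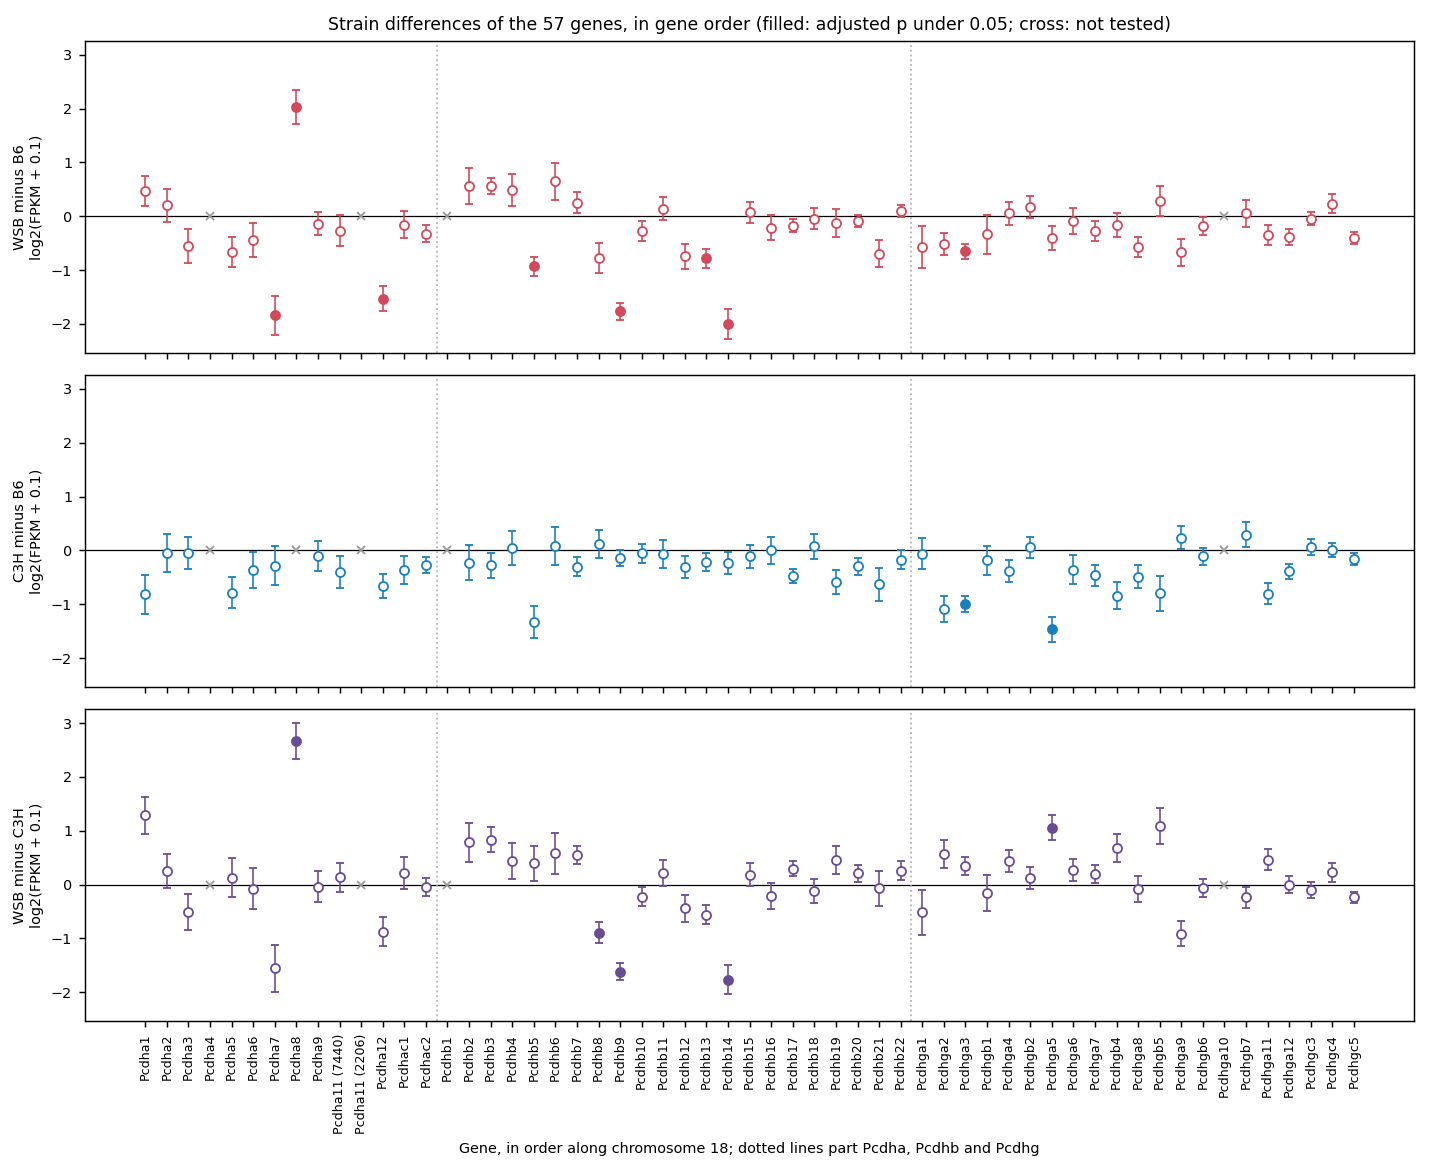
Difference of each of the 57 genes between strains on the log2(FPKM + 0.1) scale, in order along chromosome 18; points are limma estimates, lines their standard errors, filled points have an adjusted p under 0.05 and crosses were not tested. In the upper panel (WSB minus B6) Pcdha8 is at 2.03 and Pcdhb14 at -2.0, while the filled points of the middle panel (C3H minus B6) are Pcdhga3 at -0.998 and Pcdhga5 at -1.46.

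Pcdha7 and Pcdha8 are adjacent alpha isoforms, and in WSB they differed from B6 in opposite directions. Pcdha8 (chromosome 18, 36992371 to 37187657) had 0.0942, 0.0464 and 0.105 FPKM in the B6 mice, 0.0201, 0.0193 and 0.00965 in the C3H mice and 0.507, 0.660 and 0.769 in the WSB mice. All 3 WSB mice, with 45 to 75 reads, lay above every other mouse, and the C3H mice had only 1 to 2 reads each. The difference was 2.03 ± 0.32 (log2, SE, adjusted p = 0.011) against B6 and 2.66 ± 0.33 (adjusted p = 0.0051) against C3H. Without WSB replicate 2 or 3 the adjusted p against B6 was 0.0532 or 0.0555. C3H was not tested against B6 for this gene, since its mean over those 6 mice was below 0.1 FPKM. The Pcdha8 means of B6 (0.082 FPKM) and C3H (0.016 FPKM) were each below that filter. Pcdha8 thus entered both WSB comparisons only through its WSB values (mean 0.645 FPKM).

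Pcdha7 (36973802 to 37187657) had 0.366, 0.306 and 0.492 FPKM in B6, 0.171, 0.503 and 0.280 in C3H and 0.0225, 0.0325 and 0.0513 in WSB. The WSB mice, with 2 to 5 reads each, lay below all others, and B6 and C3H overlapped. The WSB mean of 0.035 FPKM was below the filter, which Pcdha7 passed only through the B6 or C3H mice. The difference between WSB and B6 was -1.84 ± 0.36 (adjusted p = 0.029), and the call was lost whichever of the 6 mice was left out (adjusted p 0.0592 to 0.131). It was also lost when replicate number was added to the fit, here called the replicate block (0.0816). Against C3H the difference was -1.55 ± 0.44 and was not called (adjusted p = 0.091). Of the 100-base stretches in the own exons of Pcdha7, 8.63% occurred in other transcripts, those of Pcdha8 among them, and of Pcdha8 5.34% occurred in Pcdha7.

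Pcdha12, the most abundant alpha isoform of B6 after Pcdhac2, held a separate range in each strain. It had 0.974, 0.752 and 1.06 FPKM in B6, 0.504, 0.667 and 0.483 in C3H and 0.259, 0.216 and 0.287 in WSB, without overlap between any of the 3 strains. WSB was 3.64-fold lower than B6 (log2 difference -1.53 ± 0.24, adjusted p = 0.012). Leaving out B6 replicate 1 or 3 gave adjusted p of 0.0509 and 0.0621. C3H was intermediate, at -0.66 ± 0.22 against B6, and was not called (adjusted p = 0.14). The main test did not call WSB against C3H either (-0.87 ± 0.26, adjusted p = 0.11). Pcdha5 and Pcdha9 were the other leading alpha isoforms, and neither was called. Pcdha5 differed by -0.66 ± 0.28 in WSB and -0.79 ± 0.29 in C3H, and Pcdha9 by -0.14 ± 0.21 and -0.10 ± 0.27.

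The smallest adjusted p in both WSB comparisons belonged to a beta gene. Pcdhb9 (37400855 to 37403909), the leading beta gene of B6 and C3H, had 4.19, 3.99 and 3.23 FPKM in B6, 3.64, 3.77 and 2.87 in C3H and 1.18, 1.02 and 0.932 in WSB. The WSB mice, with 52 to 60 reads against 170 to 246, lay below all others. WSB was 3.64-fold lower than B6 (-1.77 ± 0.15, adjusted p = 0.00076) and 3.28-fold lower than C3H (-1.62 ± 0.16, adjusted p = 0.0018), and both calls held in all 6 fits that left out a mouse. C3H and B6 overlapped (-0.15 ± 0.15, adjusted p = 0.58). Of its stretches 1.15% occurred in other transcripts.

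Pcdhb14 (37447656 to 37456350) showed the same strain order at a lower level. It had 0.707, 0.957 and 0.675 FPKM in B6, 0.599, 0.688 and 0.634 in C3H and 0.0968, 0.120 and 0.139 in WSB. WSB stood below both, with 14 to 22 reads against 97 to 168. The gene was 6.59-fold lower in WSB than in B6 (-2.0 ± 0.28, adjusted p = 0.0069), and this call held whichever mouse was left out. It was 5.42-fold lower in WSB than in C3H (-1.77 ± 0.27, adjusted p = 0.012). That call was lost without C3H replicate 1 or 3 (adjusted p 0.0603 and 0.0628) and with the replicate block (0.0611). No 100-base stretch of Pcdhb14 occurred in another gene.

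Its neighbour Pcdhb13 (37442500 to 37446209) had 1.31, 1.62 and 1.64 FPKM in B6, 1.20, 1.49 and 1.18 in C3H and 0.729, 0.872 and 0.930 in WSB. WSB was 1.81-fold lower than B6 (-0.78 ± 0.17), just inside the threshold (adjusted p = 0.046). That call was lost without any 1 of the mice (adjusted p 0.0632 to 0.16) and with the replicate block (0.0779). It was also lost with a pseudocount of 0.01 (0.0501), without the filter on low values (0.0921), with a filter of 1 FPKM (0.0684) and with total-read scaling (0.0507). Pcdhb8 (37355121 to 37358604) had 0.978, 0.497 and 0.889 FPKM in B6, 0.833, 0.844 and 0.813 in C3H and 0.414, 0.381 and 0.409 in WSB. It was called only between WSB and C3H, where it was 2.07-fold lower in WSB (-0.89 ± 0.20, adjusted p = 0.047). This call too was lost without any 1 of the mice (0.0667 to 0.151) and with the replicate block (0.144). The same held without the filter (0.111), with total-read scaling (0.0551) or with all 3 strains in 1 fit (0.0537).

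Pcdhb5 (37320381 to 37323915) was low in both strains beside B6, although it was called only in WSB. It had 1.41, 1.30 and 1.59 FPKM in B6, 0.334, 0.847 and 0.452 in C3H and 0.817, 0.637 and 0.666 in WSB. All mice of both strains lay below B6 and overlapped each other. WSB was 2.03-fold lower (-0.93 ± 0.18, adjusted p = 0.026), which passed the threshold in only 1 of the 6 fits that left out a mouse, that without WSB replicate 1 (0.042, against 0.0756 to 0.103). It was also lost without the filter (0.059), with all strains in 1 fit (0.0828) and with the replicate block (0.0741). C3H had the larger difference, -1.33 ± 0.30, but its 3 mice varied more and the adjusted p was 0.052.

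The other abundant beta genes were not called in any comparison. Pcdhb20 had 3.97, 3.46 and 3.45 FPKM in B6, 3.20, 3.34 and 2.35 in C3H and 3.51, 3.10 and 3.65 in WSB, and differed by -0.08 ± 0.11 in WSB and -0.30 ± 0.16 in C3H. Pcdhb17 differed by -0.18 ± 0.12 in WSB and by -0.47 ± 0.14 in C3H (adjusted p = 0.10). Of the genes at the 5' end of the cluster, Pcdhb2, Pcdhb3, Pcdhb4 and Pcdhb6 had positive log2 differences of 0.49 to 0.65 in WSB against B6, none of them called. Pcdhb5, which lies between Pcdhb4 and Pcdhb6, went the other way (-0.93 ± 0.18, called lower), and Pcdhb1 was not tested. The 4 genes with positive differences were picked after their values were seen.

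Among the gamma genes, Pcdhga3 and Pcdhga5 were called. Pcdhga3 (37674307 to 37841873) had 1.95, 1.81 and 1.79 FPKM in B6, 0.911, 0.798 and 0.928 in C3H and 1.11, 1.21 and 1.10 in WSB, and the 3 strains did not overlap. C3H was 2.11-fold lower than B6 (-0.998 ± 0.15, adjusted p = 0.010), a call lost only without B6 replicate 2 (0.0507) among the fits that left out a mouse. WSB was 1.62-fold lower (-0.65 ± 0.13, adjusted p = 0.034). That second call was lost without any 1 of the mice (0.0683 to 0.116) and without the filter (0.067). With the replicate block both calls were lost (0.0578 for C3H and 0.0952 for WSB). WSB was not called against C3H (0.34 ± 0.16, adjusted p = 0.25).

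Pcdhga5 (37694380 to 37841873) was called in both comparisons that involve C3H. It had 0.970, 0.956 and 1.40 FPKM in B6, 0.346, 0.354 and 0.298 in C3H and 0.696, 0.768 and 0.951 in WSB. C3H, with 27 to 32 reads against 81 to 139 in B6, was 3.33-fold lower than B6 (-1.46 ± 0.23, adjusted p = 0.013). The adjusted p was 0.0585 without B6 replicate 3, 0.0513 without C3H replicate 3 and 0.0641 with the replicate block. WSB was 2.42-fold higher than C3H (1.06 ± 0.23, adjusted p = 0.043). That call was lost without any 1 of the mice (0.0511 to 0.135), without the filter (0.0949) and with the replicate block (0.133). WSB lay just below B6 (-0.41 ± 0.22) and was not called against it (adjusted p = 0.35).

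**Figure D4:**
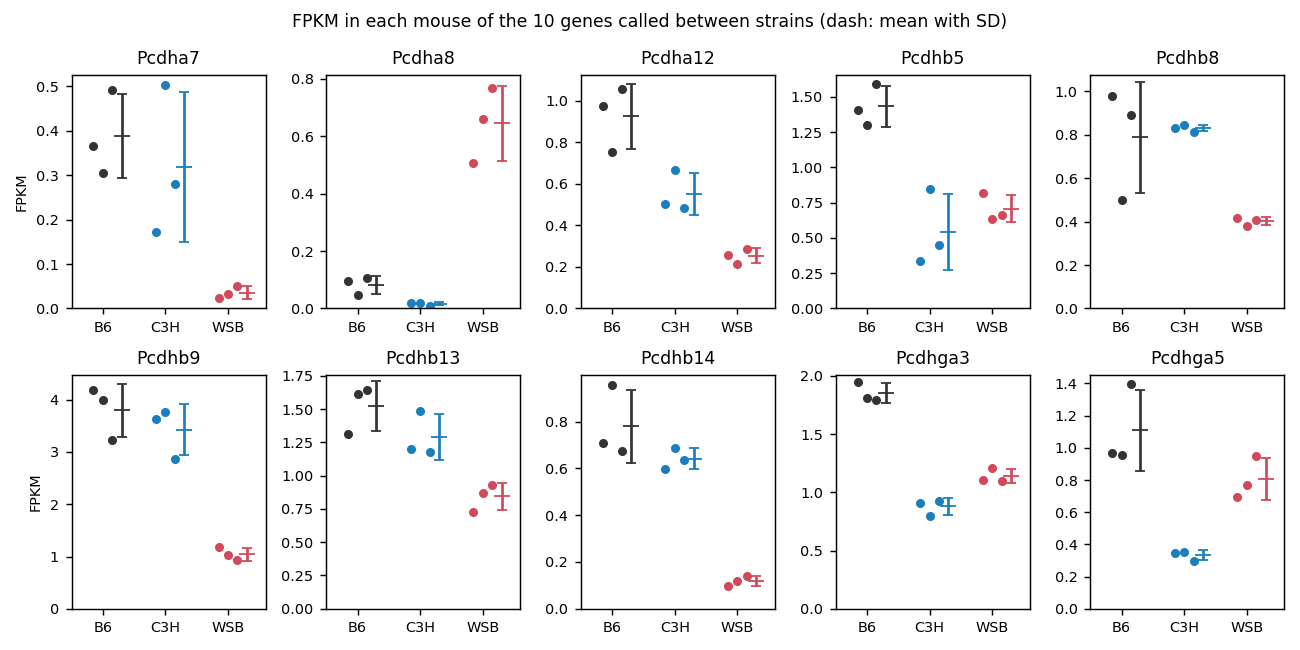
FPKM in each mouse for the 10 genes called in at least 1 comparison; points are mice, dashes the means and lines the SD of 3 mice, and each panel has its own axis from 0. WSB lies apart from both other strains in Pcdha7, Pcdha8, Pcdhb9 and Pcdhb14, and C3H lies apart in Pcdhga5, at 0.298 to 0.354 FPKM.

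The other gamma genes of highest FPKM were not called. Pcdhga11 differed from B6 in C3H by -0.81 ± 0.20 (adjusted p = 0.067), Pcdhga12 by -0.39 ± 0.14 in C3H and -0.39 ± 0.15 in WSB, and Pcdhga6 by -0.36 ± 0.27 and -0.08 ± 0.24. Pcdhgb6, the leading gamma-B gene, differed by -0.18 ± 0.16 in WSB and -0.11 ± 0.16 in C3H, and Pcdhgb2 by 0.18 ± 0.21 and 0.06 ± 0.19. Pcdhgb7 had the highest positive value of all clustered protocadherins between C3H and B6, at only 0.29 ± 0.23. With voom weights on the recovered reads, 6 of 52 genes (11.5%, against 7.22% of all genes called in either direction) were called lower in C3H than in B6, namely Pcdhb5, Pcdhga2, Pcdhga3, Pcdhga5, Pcdhga11 and Pcdhgb4, and none was called higher.

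No C-type isoform was called by the main test, in any comparison. For WSB against B6 limma gave 1 of the 5 an unadjusted p under 0.05, beside 20.4% of all genes. Voom weights called 1, Pcdhgc5, beside 7.43% of all genes. For the other comparisons both counts were 0. Pcdhgc5 had 9.63, 7.84 and 8.74 FPKM in B6, 8.55, 7.35 and 7.45 in C3H and 6.13, 6.39 and 7.21 in WSB, so that the WSB mice lay below the B6 mice (-0.40 ± 0.11, adjusted p = 0.080). Pcdhgc3 differed by -0.05 ± 0.12 in WSB and 0.06 ± 0.14 in C3H. Pcdhgc4 differed by 0.23 ± 0.17 and 0.01 ± 0.13, Pcdhac2 by -0.32 ± 0.15 and -0.27 ± 0.15, and Pcdhac1 by -0.16 ± 0.25 and -0.37 ± 0.26.

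Of the genes that lie among the protocadherins without belonging to them, 28 in all, 7 had no exon base of their own and were at 0 reads in every library. Pcdhgb8 is annotated as a polymorphic pseudogene and so was not a member of the group. It lies between Pcdhga11 and Pcdhga12 in gene order (37761801 to 37841870). It had 0.351, 0.182 and 0.376 FPKM in B6, 0.0931, 0.0335 and 0.0447 in C3H and 1.81, 1.65 and 1.48 in WSB. The WSB mice were far above the others, by 2.15 ± 0.26 against B6 (adjusted p = 0.0035) and 3.49 ± 0.26 against C3H (adjusted p = 0.00048). Gm36858, an unprocessed pseudogene between the first exons of Pcdha7 and Pcdha8, had 0.252, 0.266 and 0.321 FPKM in WSB and at most 0.117 in any B6 or C3H mouse. It was called between WSB and C3H (1.73 ± 0.39, adjusted p = 0.048) but not between WSB and B6 (1.46 ± 0.44, adjusted p = 0.11). With means of 0.045 FPKM in B6 and 0.015 in C3H, Gm36858 passed the filter only through WSB (0.279). Against C3H, where its mean was 0.057 FPKM, Pcdhgb8 also passed only through WSB. These other genes numbered 7, 6 and 7 among those tested in WSB versus B6, C3H versus B6 and WSB versus C3H, of which limma called 1, 0 and 2. At an unadjusted p under 0.05 there were 2, 1 and 2, where 20.4%, 24.1% and 23.8% of all genes were, and voom weights called 2, 1 and 2, where they called 7.43%, 7.22% and 8.53% of all genes.

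Genes known to act with the clustered protocadherins were read from the same fits. Isoform choice depends on the DNA-looping proteins CTCF and cohesin and on DNA methylation. Of 23 such regulators, limma called 1, between C3H and B6, where it called 4.64% of all genes. This was Tet3, an enzyme that oxidises methylated cytosine, which was lower in C3H. Tet3 had 3.72, 3.18 and 3.35 FPKM in B6, 2.10, 2.38 and 1.97 in C3H and 2.55, 2.56 and 3.02 in WSB, and the C3H difference was -0.64 ± 0.13 (adjusted p = 0.031) with a WSB difference of -0.32 ± 0.12 (adjusted p = 0.18). The median over the 23 regulators was -0.29 for C3H minus B6 and -0.03 for WSB minus B6. At an unadjusted p under 0.05 there were 10 and 2 of the 23, where 24.1% and 20.4% of all genes were. With voom weights 1 and 0 were called, beside 7.22% and 7.43% of all genes. Between WSB and C3H limma called none, with 6 of the 23 at an unadjusted p under 0.05 (23.8% of all genes). There voom weights called 1, Pds5b, beside 8.53% of all genes.

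Of 12 protocadherins encoded outside the clusters, 11 were tested and limma called none. Of the 11, 2 had an unadjusted p under 0.05 for WSB versus B6, 4 for C3H versus B6 and 2 for WSB versus C3H. Of all genes 20.4%, 24.1% and 23.8% did. With voom weights 1, 0 and 2 were called, beside 7.43%, 7.22% and 8.53% of all genes. Medians over the 11 were -0.03, -0.22 and 0.16. Of 22 partners and signalling proteins, which include the proteases ADAM10 and presenilin that cleave protocadherins, the kinases FAK and PYK2 and the WAVE complex, none was called by limma or with voom weights in any comparison. At an unadjusted p under 0.05, in the same order of comparisons, there were 4, 5 and 3 of the 22. The shares of all genes were 20.4%, 24.1% and 23.8%. Medians over the 22 were -0.11, 0.001 and -0.06.

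Over genes of at least 1 FPKM, the differences between C3H and B6 went with base composition. GC content was that of a gene's longest transcript, which in Pcdha and Pcdhg can hold constant exons with almost no counted reads. Over 12940 such genes the C3H minus B6 difference and GC content had a Spearman rho of 0.49. Genes of higher GC content thus tended to be higher in C3H. The rho was 0.11 for WSB minus B6 over 13036 genes and -0.40 for WSB minus C3H over 12998. GC content was 46.5 to 49.8% in the Pcdha genes, 39.1 to 49.0% in the Pcdhb genes and 51.0 to 55.4% in the Pcdhg genes, with a median of 49.6% for the genes tested between WSB and B6. Pcdhga3 and Pcdhga5, both called lower in C3H, had 52.4%. With the GC trend removed, limma gave Pcdhga3 a C3H minus B6 difference of -1.10 ± 0.13 (adjusted p = 0.0038). For Pcdhga5 it was -1.57 ± 0.22 (adjusted p = 0.0076). The part of GC content in these calls was not tested. After a GC trend had been removed, 5 clustered protocadherins were called between C3H and B6 in place of 2 (9.62% in place of 3.85%), while over all genes the share was 5.69% in place of 4.64%. The log2 ratio of the summed Pcdhg cluster was then -0.435 in place of -0.293, that of Pcdhb -0.181 in place of -0.268 and that of Pcdha -0.383 in place of -0.379.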

How the data were processed

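Paired-end reads came from cortex RNA of 9 males, 3 per strain. The authors trimmed the reads with Cutadapt, and the submitters' processing notes name STAR, HTSeq and DESeq2, with no versions. The deposited values are FPKM per gene and mouse. Deposited gene lengths equalled exon unions of GENCODE M21 (GRCm38) for 53411 of 54532 genes. GRCm38 is built from C57BL/6J, and the part of strain sequence differences in the counting was not tested. Multiplied by length, FPKM gave whole reads (tolerance 0.01) in every library, from which depth was recovered. Counting error alone is large for genes of few reads.

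Here, limma 3.58.1 in R 4.3.3 was fitted for each pair of strains on log2(FPKM + 0.1) over all genes averaging 0.1 FPKM or more across both strains (lmFit, eBayes with a trend, two-sided, Benjamini-Hochberg over all genes), and tested on simulated data. The study's own count test was not run, and the recovered reads entered only through voom weights, as an alternative. Own-exon levels are FPKM multiplied by exon length and divided by the exon bases that belong to 1 gene only. Cluster sums add FPKM as deposited and shares use own-exon levels, and neither was tested. GC content, that of the longest transcript of each gene, and shared 100-base stretches came from GENCODE M21 sequence. The table names 2 genes Pcdha11. ENSMUSG00000007440 is counted here under that name, although RefSeq places Pcdha10 there, and ENSMUSG00000102206 is the one with little sequence of its own.

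The members, gene lists and marker lists were chosen with earlier results of these data known. Named with values were all genes called in at least 1 comparison, the 3 of highest FPKM in each of Pcdha, Pcdhb, Pcdhga and Pcdhgb, the C-type isoforms, the largest rise and fall in each comparison, the called genes of the regulator, partner and other-protocadherin lists, and the called genes inside the span. Alternatives were other pseudocounts, filters, scalings, GC trend removal, 1 fit of all strains, no eBayes trend, voom weights, a replicate block and leaving out each mouse. No sequences are printed for this locus.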

Additional observations from a re-analysis of the deposited data

Results flagged for a closer look

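In 5 clustered protocadherins the WSB and C3H values, each set against the same B6 mice, differed from each other by the direct limma test of WSB against C3H. The difference WSB minus C3H on the log2(FPKM + 0.1) scale was 2.665 for Pcdha8, -0.892 for Pcdhb8, -1.619 for Pcdhb9, -1.765 for Pcdhb14 and 1.057 for Pcdhga5. For Pcdhb9 and Pcdhb14 WSB was called lower than B6 while C3H overlapped B6. For Pcdha8 WSB was called higher than B6, C3H had 1 to 2 reads per mouse, and the gene passed the filter only through WSB. For Pcdhga5 C3H was called lower than B6 and WSB was not. Pcdhb8 was called against B6 in neither strain, and its C3H mice (SD 0.016 FPKM) spread far less than its B6 mice (SD 0.256 FPKM).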

How the results depend on the processing

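Of the 8, 2 and 5 clustered protocadherins called in WSB versus B6, C3H versus B6 and WSB versus C3H, no call changed direction under any alternative. Without the filter on low values the counts were 5, 2 and 3, and with a filter of 1 FPKM, which left 19 members to test against B6, they were 3, 1 and 1. Without the filter these were 8.77%, 3.51% and 5.26% of members, beside 3.43%, 2.54% and 3.08% of all genes. With a filter of 1 FPKM the shares against B6 were 15.8% and 5.26%, beside 7.25% and 6.35% of all genes. In C3H versus B6 a pseudocount of 1 gave 4 (7.69%, beside 4.39% of all genes) and GC trend removal 5 (9.62%, beside 5.69%). With all 3 strains in 1 fit 6 were called in C3H versus B6 and 9 in WSB versus C3H, with voom weights 6 and 11, and without the eBayes trend 8 in WSB versus C3H. In the 1 fit these were 11.5% and 17% of members, beside 6.75% and 8.16% of all genes. With voom weights they were 11.5% and 20.8%, beside 7.22% and 8.53%, and without the trend 15.1%, beside 4.35%. Leaving out 1 mouse gave 3 to 5, 1 to 5 and 2 to 4. Over all genes 3.13% to 3.97%, 2.41% to 11.2% and 2.29% to 9.71% were called in these fits. The 5 in C3H versus B6 arose without C3H replicate 2, and counts of 1 without B6 replicate 2, B6 replicate 3 or C3H replicate 3. Without C3H replicate 2 the 5 were 9.62% of members, below the 11.2% called over all genes. In WSB versus B6 every mouse left out lowered the count to 5 or fewer, and in WSB versus C3H every mouse but C3H replicate 2 lowered it to 3 or fewer. GC trend removal moved the log2 ratio of the Pcdhg sum in C3H to -0.435. The share of members called in WSB versus B6 stayed above that of all genes in each of these settings, whereas in WSB versus C3H it was below with a filter of 1 FPKM (6.25% against 7.83%) and without C3H replicate 2 (7.55% against 9.71%). The cause of these shifts was not tested. Pcdhb9 in both WSB comparisons, Pcdhb14 against B6 and Pcdha8 against C3H were called in every alternative in which they were tested. Of these, Pcdha8 passed the main filter on low values only through WSB.

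Replicate numbers are shared between strains, but same-numbered mice did not deviate together over genes of at least 1 FPKM (correlations -0.157 to 0.037). What the numbers stand for is not given in the labels, and whether they mark a shared batch was not tested. With a replicate block the counts were 4, 0 and 2 (7.55%, 0% and 3.77%, beside 3.63%, 2.33% and 2.58% of all genes). In C3H versus B6, where limma with the block called 0, 9 of 52 members (17.3%) had an unadjusted p under 0.05, against 19.3% of all genes. Reads per gene limit the weakest members: the C3H mice had 1 to 2 reads of Pcdha8 and the WSB mice 2 to 5 of Pcdha7.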

Other observations

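Of the clustered protocadherins too low to test, Pcdhga10, which has no exon base of its own, had 1 to 5 reads in the B6 mice, 1 to 7 in the C3H mice and 0 in each WSB mouse, and the count of 0 allows up to 3 reads per library. Pcdhb1, whose exons are all its own, had at most 4 reads in any mouse. The Pcdha11 gene ENSMUSG00000102206 had 0 reads in every B6 mouse, at most 4 in C3H and at most 2 in WSB.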
